A study of Rattus norvegicus with 7 samples.

Results

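The miRNAs rno-miR-33, rno-miR-378, rno-miR-185 and rno-miR-335, which have known roles in hepatic lipid and cholesterol metabolism, were followed in the livers of rats fed potassium perfluorooctanesulfonate (PFOS), a persistent fluorinated surfactant. These 4 were chosen by name, each as the listed mature miRNA or as its star arm, which gave 7 arms among the 677 rat miRNAs on the array. The arms were miR-33, miR-33*, miR-378, miR-378*, miR-185, miR-185* and miR-335. Names are those of the array, and the species prefix is mostly left out below. PFOS livers came from adult male Sprague-Dawley rats given 50 mg/kg of PFOS in the diet for 28 days (4 arrays), and control livers from rats of the same strain, sex and age class on the control diet for the same time (3 arrays). Total liver RNA of 1 rat was labelled with Cy3 and hybridised to each Agilent miRNA array, so RNA of all liver cell types was measured together, and fewer cells of a type and less of a miRNA per cell cannot be told apart. The submitters had hybridised 4 rats per group and left out 1 control array at quality control. The comparison asks whether liver miRNA levels differ between the diets.

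Each of these miRNAs is cut from a hairpin transcript into a 5′ and a 3′ arm, and the arm loaded into the silencing complex represses mRNAs that pair with its seed, bases 2 to 8. The hairpin of miR-33 lies within Srebf2, the gene of the master activator of cholesterol synthesis, and miR-33 is known to repress the cholesterol exporter Abca1 and enzymes of fatty acid oxidation. The hairpin of miR-378 lies within Ppargc1b, the gene of a coactivator of mitochondrial and lipid metabolism, and miR-378 is known for roles in mitochondrial energy use. That of miR-185 lies within Tango2, and miR-185 is known to repress the HDL receptor Scarb1. In other species miR-335 is expressed with Mest, a gene linked to fat storage, and it has been found raised in the liver and fat of obese mice.

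Mature sequences of 6 of the 7 arms were found in RefSeq (GRCr8) and are shown because the arms are told apart by them. RefSeq uses newer names, so miR-33 and miR-185 were read as the 5p arms and miR-378 as the 3p arm of mir-378a, with the star names as the opposite arms. This pairing follows older miRNA nomenclature, and probe sequences were not used here to check it, so the sequences, seeds and positions hold only under it. They are written 5′ to 3′ with the seed in capitals, and no 2 of them share a seed, nor does any other of the 693 mature rat sequences in that table carry one of these seeds.
miR-33: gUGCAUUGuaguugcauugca
miR-33*: cAAUGUUUccacagugcauca
miR-378: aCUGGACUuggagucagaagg
miR-378*: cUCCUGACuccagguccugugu
miR-185: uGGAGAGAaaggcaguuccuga
miR-185*: uUUCCUCUgguccuucucu
In GRCr8, miR-33 lies at chr7:115593957-115593977 and miR-33* at chr7:115593997-115594017, both on the plus strand, as is Srebf2. The miR-378 arm lies at chr18:57128925-57128945 and miR-378* at chr18:57128962-57128983, both on the minus strand, as is Ppargc1b. Another hairpin, mir-3557, is annotated on the opposite strand across the same place. Its arms, miR-3557-5p and miR-3557-3p, were on the array and were detected on 0 of 7 arrays. The miR-185 arm lies at chr11:96169041-96169062 and miR-185* at chr11:96169085-96169103, both on the plus strand, as is Tango2.

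Liver identity was checked with marker miRNAs. All 4 hepatocyte miRNAs (miR-122, miR-192, miR-194 and miR-22) were detected on all 7 arrays, as were 5 of 5 leukocyte and Kupffer cell miRNAs on the array, while 3 of 4 muscle miRNAs (miR-1, miR-133a and miR-133b) and 2 of 3 neuronal miRNAs (miR-124 and miR-9) were detected on none. The other muscle miRNA, miR-206, was detected on 3 PFOS and 2 control arrays, with scaled signals from 1.66 to 60.3 and from 22.0 to 56.8. The other neuronal one, miR-128, was detected on 3 PFOS and 0 control arrays. The arrays lay on 1 slide with 1 scan time, in 2 slide rows. PFOS arrays were brighter before scaling, by 1.74-fold in the median signal of the 123 miRNAs detected on all arrays and by 2.19-fold in the labelling spike-in, an RNA meant to be added in equal amount before labelling. For each of these measures the exact two-sided permutation p was 0.0286, the smallest that 35 splits can give, and 0.0714 after adjustment over 5 array measures. Before scaling, the log2 difference of PFOS minus control was 0.87 for miR-33, 0.62 for miR-378, 0.73 for miR-378* and 0.71 for miR-335, against a median of 0.70 over all 175 tested miRNAs. The values below are signals after scaling and cyclic loess, and the part of the brightness in them was not tested beyond the other scalings given at the end.

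None of the member arms that could be tested passed as different between diets in the main processing. Detection, meaning over 50% of the spots of at least 1 probe well above background, was met on all 7 arrays by miR-33, miR-378, miR-378* and miR-335. These 4 arms were tested. The signal of miR-185 was well above background on 1 PFOS array, and miR-33* and miR-185* on no array. Of the 4 tested arms, 0 passed limma at an adjusted p under 0.05, where percent called was 0 among all 175 tested miRNAs (smallest adjusted p 0.131). At an unadjusted p under 0.05, 0 of 4 passed, against 19.4% of all tested miRNAs (34 of 175), made up of 8.57% higher and 10.9% lower in PFOS livers. The groups overlapped for all 4, and they did not overlap for 9.71% of the tested miRNAs in each direction. With 4 arms, a count of 0 does not set them apart from shares of this size. The median log2 fold change was 0.0053 over the 4 arms and -0.017 over all tested miRNAs. The median standard error was 0.17 and 0.14.

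**Figure D1:**
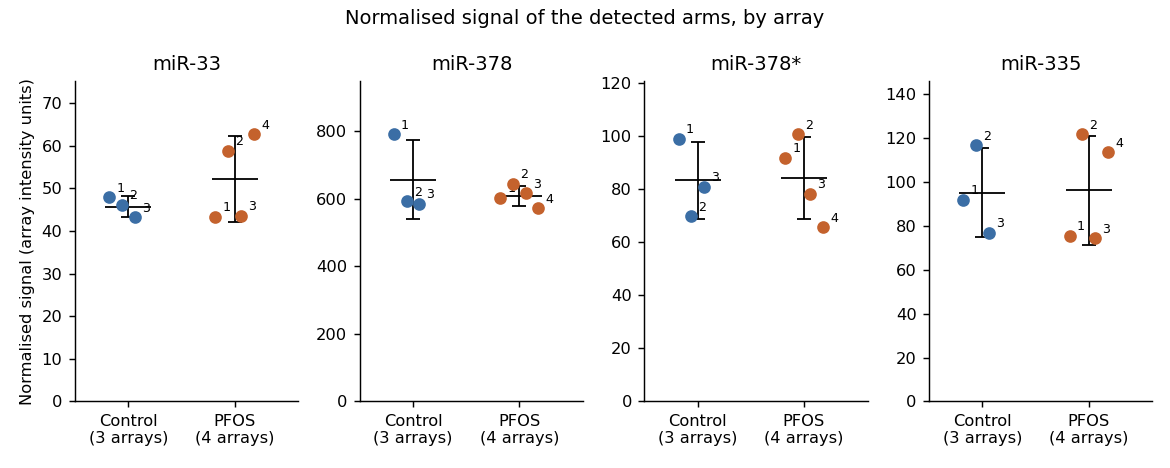
Normalised signal (linear axis from 0, array intensity units) of miR-33, miR-378, miR-378* and miR-335 in 3 control and 4 PFOS livers; each point is 1 array with its replicate number, and the bars give the mean and SD. The 2 groups overlap in every panel, with Control replicate 1 highest for miR-378 at 790 and the PFOS livers split into a lower and a higher pair for miR-33 and miR-335.

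The guide arm of the Srebf2 locus, rno-miR-33, lay in a narrow range in the control livers and in a wider one in the PFOS livers. The normalised signal of rno-miR-33 was 47.9, 46.1 and 43.2 on the control arrays, in replicate order. It was 43.4, 58.9, 43.5 and 62.6 on the PFOS arrays. Thus PFOS replicates 2 and 4 were above every control liver, while PFOS replicates 1 and 3 were at the level of the lowest control. The means were 52.1 ± 10.1 (SD, n = 4) in PFOS and 45.7 ± 2.37 (SD, n = 3) in control livers. The log2 fold change was 0.17 (SE 0.16, limma adjusted p = 0.631), with a 95% confidence interval from -0.21 to 0.55. Fold changes between 0.862 and 1.47 therefore lay within the interval, which leaves room for a moderate difference in either direction. Within the first slide row, with 2 PFOS arrays and 1 control array, the log2 difference was 0.077, and within the second, with 2 of each, 0.23.

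The array carries 3 probes for miR-33, and a single one of them gave the signal. Probe A_26_P00001271 was detected on 7 of 7 arrays, and probes A_26_P00001269 and A_26_P00001270 on none. Its scaled signal was 36.9, 34.6 and 32.9 on the control arrays and 38.3, 48.2, 32.2 and 51.8 on the PFOS arrays. PFOS replicates 2, 4 and 1 lay above every control array, replicate 1 by little, and PFOS replicate 3 lay just below every control array. The log2 difference of this probe alone was 0.27. The probes not detected had scaled signals from 1.40 to 7.94 and added this background-level reading to the sum. Repeat spots of the detected probe on 1 array varied with a CV of 1.12% to 16.8%. Under other treatments of the background the sign of miR-33 turned, to -0.10 under normexp correction and -0.085 for the unsubtracted median pixel signal. The passenger arm, miR-33*, had scaled signals from -7.09 to 3.07 on the 7 arrays, near or below 0 in both groups, so no fold and no arm ratio is given.

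**Figure D2:**
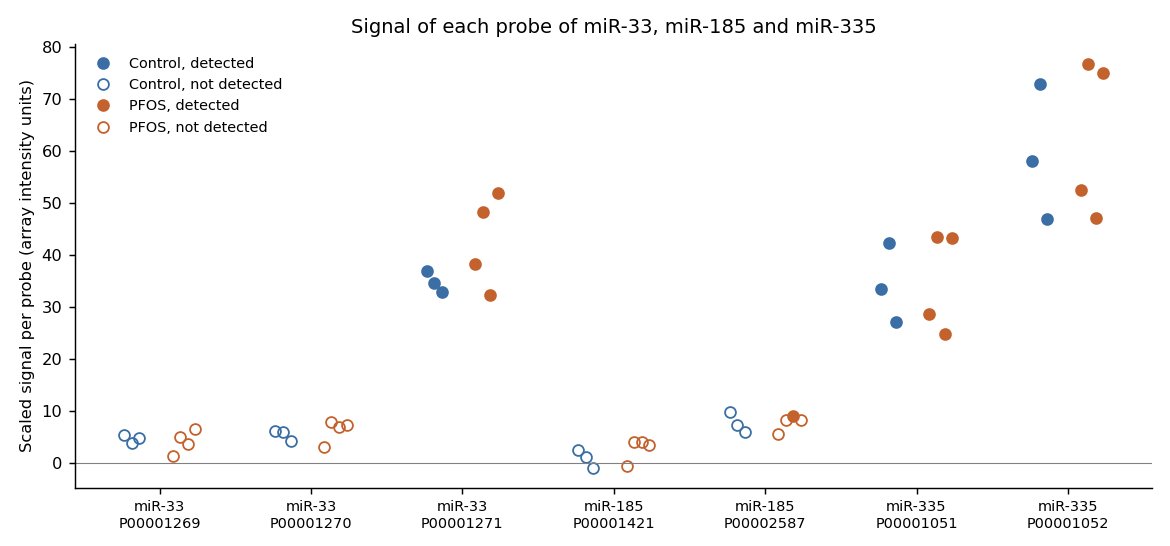
Scaled signal (array intensity units, before loess) of each probe of miR-33, miR-185 and miR-335; each circle is 1 array, filled where the probe was detected. For miR-33, probe P00001271 alone is detected, for miR-185 probe P00002587 on 1 PFOS array, and both probes of miR-335 show the same separation of livers.

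The arm read as miR-378, of the Ppargc1b locus, had the narrowest relative spread of the 4 arms within the PFOS group. The normalised signal of rno-miR-378 was 603, 644, 616 and 572 on the PFOS arrays. It was 790, 592 and 585 on the control arrays. Control replicate 1 stood above all other livers, and the other control livers lay inside or next to the PFOS range. The means were 609 ± 29.8 (SD, n = 4) and 656 ± 116 (SD, n = 3). The log2 fold change was -0.094 (SE 0.12, limma adjusted p = 0.768), with a 95% confidence interval from -0.39 to 0.20, or folds from 0.762 to 1.15. Without Control replicate 1 the value was 0.050, so that array decides the sign. That array is also the one control of the first slide row, where the log2 difference was -0.34. Within the second row it was 0.013.

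Both probes of miR-378 gave the same order of the highest arrays. Probe A_26_P00001732 had scaled signals of 255 on Control replicate 1 and 196 to 220 on the other arrays. Probe A_26_P00001733 had 499 on Control replicate 1 and 374 to 445 on the others. The high reading of that liver was thus present in both probes. The log2 differences of the group means were -0.057 and -0.024, and the repeat spots of both probes varied with a CV of 2.83% to 9.51% within an array. Over the 7 arrays the 2 probes followed each other with a Pearson r of 0.95. They share target, RNA and array and are not replicates.

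The authors' deposited table, on a log2 scale, gave another picture for this arm. There miR-378 stood at 8.33, 8.34, 8.10 and 8.16 on the PFOS arrays. It stood at 8.82, 8.43 and 8.46 on the control arrays. All 4 PFOS values lay below all 3 control values in the authors' deposited table. The 9.71% of tested miRNAs without overlap in each direction is a share of the main values. No such share was counted for the authors' deposited table. Fitted in the same way with limma, that table gave a log2 fold change of -0.34 (SE 0.11, unadjusted p = 0.0207, adjusted p = 0.117), which did not pass. The same limma fit gave an unadjusted p under 0.05 for 41 of the 175 tested miRNAs. In it 9 passed at an adjusted p under 0.05, 0 higher and 9 lower in PFOS livers. Over all tested miRNAs the median in the authors' deposited table was -0.017. The values of miR-33, miR-378* and miR-335 fitted from the authors' deposited table were 0.073, 0.059 and 0.050. For miR-33, each undetected probe holds 7 spots and the detected one 6, so most of its spots read background. The miR-33 values in that table ran from 5.63 to 5.79, near the column medians of 5.48 to 5.51.

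The other arm of the same hairpin, miR-378*, varied more between livers. Its normalised signal was 91.9, 100.7, 78.3 and 65.6 on the PFOS arrays. It was 99.0, 70.0 and 81.0 on the control arrays. The groups covered nearly the same range, with means of 84.1 ± 15.4 (SD, n = 4) and 83.3 ± 14.7 (SD, n = 3). The log2 fold change was 0.0096 (SE 0.19, limma adjusted p = 0.9997), with a 95% confidence interval from -0.44 to 0.46. Both of its probes were detected on all 7 arrays, with log2 differences of 0.093 and 0.049 and a Pearson r between probes of 0.97. Arrays of the first slide row held the 3 highest values and those of the second row the 4 lowest. The log2 differences within rows were -0.042 and -0.071.

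Because both arms were detected everywhere, their ratio could be followed within each array, where a scaling factor common to the array cancels. The cyclic loess, which depends on signal level, and a background left in the signal do not cancel. The ratio of miR-378 to miR-378* signal was 6.56, 6.39, 7.87 and 8.72 on the PFOS arrays. It was 7.98, 8.46 and 7.22 on the control arrays. PFOS replicates 1 and 2 were lowest and PFOS replicate 4 highest, so the groups overlapped. The log2 ratio differed by -0.10 between diets (SE 0.14, limma adjusted p = 0.760 over 21 arm pairs), with a 95% confidence interval from -0.43 to 0.22. Of the 21 pairs, 1 passed (4.76%), which was that of miR-99a. In the authors' deposited table the same ratio had a log2 difference of -0.40 (SE 0.079), and it passed with a limma adjusted p of 0.00714. The number of pairs that passed in that table was not counted, so the 4.76% of the main values is not its background share. Under the 7 fits that each left out 1 array of the main values, the difference ran from -0.20 to -0.030 and did not pass.

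The miRNA miR-185 was at the limit of the array. One of its probes, A_26_P00002587, reached 8 of 10 spots well above background on PFOS replicate 3, 4 on PFOS replicate 2 and 3 on PFOS replicate 4. On PFOS replicate 1 and on the 3 control arrays 0 spots did. PFOS replicate 3 was also the brightest array, with an unscaled median of 326 against 133 to 244 on the others, and its part in the detection was not tested. The scaled signal of this probe was 9.05 on PFOS replicate 3 and as high as 9.89 on Control replicate 1. The second probe, A_26_P00001421, was detected on no array. The summed scaled signal of rno-miR-185 ran from 5.01 to 13.0 on PFOS arrays and from 5.03 to 12.4 on control arrays, and that of miR-185* from -0.46 to 7.85 and from 2.93 to 5.58. With the floor of detected values at 12.1, a difference in miR-185 between diets was not measurable on these arrays.

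The signals of miR-335 differed more between livers than between diets. The normalised signal of rno-miR-335 was 75.6, 121.7, 74.5 and 113.5 on the PFOS arrays. It was 91.9, 116.9 and 76.9 on the control arrays. PFOS replicates 2 and 4 and Control replicate 2 were high, Control replicate 1 lay between, and the other livers of both diets were low. The highest liver had 1.63 times the signal of the lowest. The means were 96.3 ± 24.8 (SD, n = 4) and 95.3 ± 20.2 (SD, n = 3), with a log2 fold change of 0.0011 (SE 0.24, limma adjusted p = 0.9997). The 95% confidence interval, from -0.58 to 0.58, was the widest of the 4 arms and allows folds from 0.671 to 1.49. Its standard deviation within groups, 0.35 on the log2 scale, was larger than that of 74.9% of the tested miRNAs. For miR-33 the standard deviation was 0.22 and for miR-378* 0.26. For miR-378 it was 0.16, larger than that of 43.4% of the tested miRNAs.

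The separation of livers for miR-335 was present in both of its probes. Probe A_26_P00001051 had scaled signals of 43.5 and 43.2 on PFOS replicates 2 and 4 and 42.3 on Control replicate 2, against 24.8 to 33.4 on the other arrays. Probe A_26_P00001052 had 76.6, 74.9 and 72.8 on the same 3 arrays and 46.9 to 58.0 on the others. The Pearson r between these probes over the 7 arrays was 0.99. Repeat spots of either probe varied with a CV of 5.03% to 19.2% within an array. Within slide rows the log2 differences between diets were 0.061 and -0.044.

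The miRNA with the most similar pattern to miR-335 was miR-30c, with a Pearson r of 0.98 over 7 arrays, the highest of 174 candidates. It stood at 440.8, 461.9 and 415.8 on the control arrays and at 419.8, 474.5, 402.2 and 466.8 on the PFOS arrays. Its 3 highest livers were those in which miR-335 was highest, over a much smaller range. Next were miR-31* (r = 0.84) and miR-33 itself (r = 0.78). For miR-33 the nearest patterns were those of miR-98 (r = 0.86), miR-32 (r = 0.85, detected on 3 PFOS and 0 control arrays) and miR-30c (r = 0.82). For miR-378 they were miR-130a (r = 0.70), its own other arm miR-378* (r = 0.69) and miR-505 (r = 0.68). For miR-378* they were miR-466b-1* (r = 0.84), miR-764 (r = 0.84) and miR-466c* (r = 0.81). The r values are the largest among 174 and describe 7 arrays that share slide, labelling and normalisation. The median r over the candidates was -0.11 for miR-33 and -0.025 for miR-335. In base composition, miR-98 and miR-32 were 31.8% G or C, miR-33 42.9% and miR-30c 43.5%, against a median of 47.8% over the mature sequences. The arms miR-378 and miR-378* were 52.4% and 59.1%. In contrast, miR-130a, the nearest pattern to miR-378, was 40.9%, below that median. The part of composition in these patterns was not tested.

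**Figure D3:**
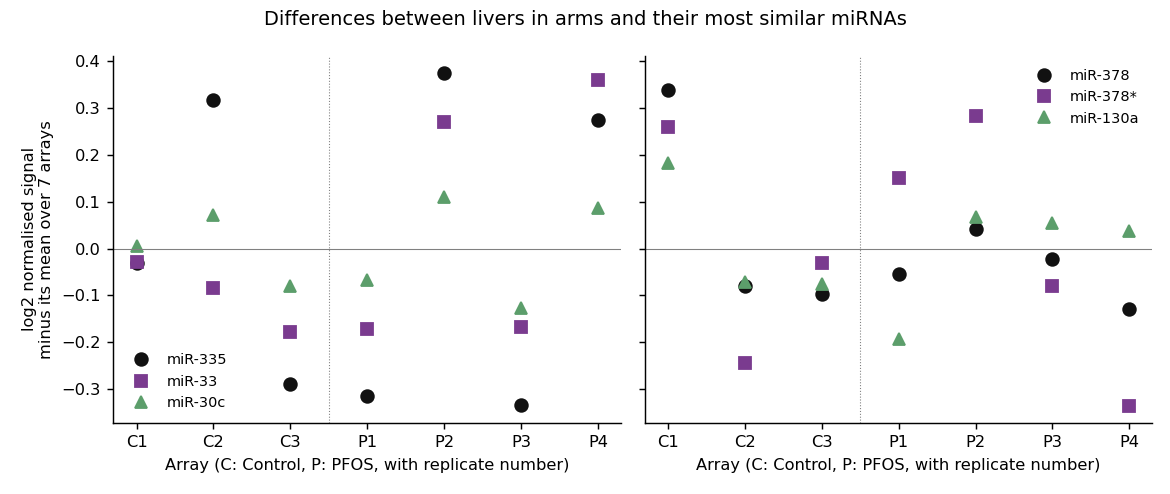
Difference of each array's log2 normalised signal from the mean over 7 arrays, for miR-335, miR-33 and miR-30c on the left and miR-378, miR-378* and miR-130a on the right (C1 to C3 are control arrays, P1 to P4 PFOS arrays). On the left P2 and P4 are high for all 3 and C2 for miR-335 and miR-30c, and on the right C1 is high for all 3.

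The 4 tested arms were set beside other miRNAs known to act on cholesterol export, lipoprotein uptake and secretion or fat synthesis. A list of 26 names had 51 arms on the array, of which 20 were tested and 28 were detected on no array. Among the 20, 11 had a positive and 9 a negative fold change, with a median log2 fold change of 0.0016, and 0 passed at an adjusted p under 0.05 in limma. These 20 include the 4 arms followed here. The 16 others had 8 positive and 8 negative fold changes, with a median of -0.0074. Before adjustment 5 of the 20 had a p under 0.05, 1 higher and 4 lower in PFOS livers and none of them among the 4 arms followed here, against the 19.4% of all tested miRNAs. The higher one was miR-107, a paralog of miR-103 that acts on insulin sensitivity, at 0.34 (SE 0.098, limma adjusted p = 0.132). It had 430 to 500.0 on PFOS and 343 to 404 on control arrays, without overlap.

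Of the 4 lower ones, miR-27b, which represses lipid genes in the liver, was at -0.34 (SE 0.10, limma adjusted p = 0.155). It had 566 to 643 on PFOS and 656 to 828 on control arrays. The passenger arm miR-122* was at -0.25 (SE 0.083), with 1283 to 1497 on PFOS and 1570 to 1666 on control arrays. Both sets of arrays were apart, though the nearest PFOS and control livers were close. The p53-induced miR-34a was at -0.69 (SE 0.25) and the myeloid miR-223, which also represses Scarb1, at -0.23 (SE 0.088), and for these 2 the groups overlapped. The most studied hepatic miRNA of lipid metabolism, miR-122, was at 0.0042 (SE 0.061). All of these had an adjusted p of 0.132 or more in limma. The confidence intervals of miR-33, miR-378, miR-378* and miR-335 all included 0.

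**Figure D4:**
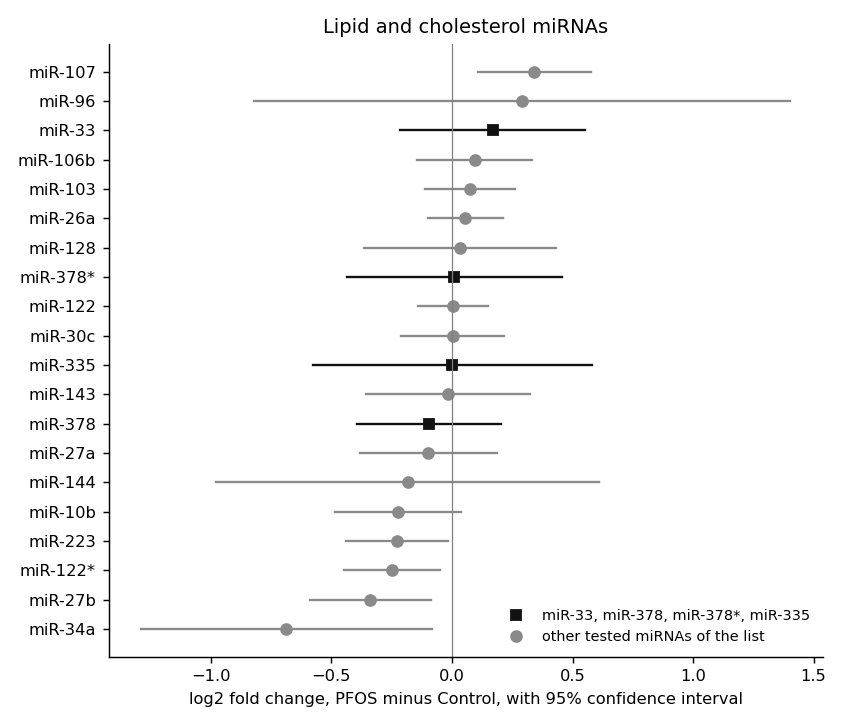
log2 fold change of PFOS minus control (points) with 95% confidence intervals (lines, limma) for the 20 tested miRNAs of the lipid and cholesterol list; black squares are miR-33, miR-378, miR-378* and miR-335. The intervals of these 4 include 0, and the intervals of miR-107, miR-223, miR-122*, miR-27b and miR-34a do not, before adjustment for the 175 tests.

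The sign of these small values depended on the scaling. Scaled by the labelling spike-in, which took the median over all tested miRNAs to -0.40, the log2 fold changes were -0.23 for miR-33, -0.48 for miR-378, -0.37 for miR-378* and -0.39 for miR-335. Relative to that median they were 0.17, -0.077, 0.024 and 0.0094. Scaled to the 75th percentile over all miRNAs, with a median of 0.25, they were 0.43, 0.18, 0.28 and 0.26. Relative to it they were 0.17, -0.076, 0.026 and 0.011. Both scalings move all miRNAs of an array alike, so they could hardly change the standing of the 4 arms among the tested miRNAs. Their absolute sign was not fixed by these arrays. Other alternatives did move the values relative to the median. For miR-33 this value was 0.19 in the main processing, -0.072 under normexp, -0.054 with the median pixel signal and 0.090 in the authors' deposited table. For miR-378 it was -0.078, -0.035, -0.033 and -0.32 in the same order. None of the 4 passed at an adjusted p under 0.05 in limma under any alternative run, and the smallest adjusted p of the 4 was 0.117, that of miR-378 in the authors' deposited table.

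**Figure D5:**
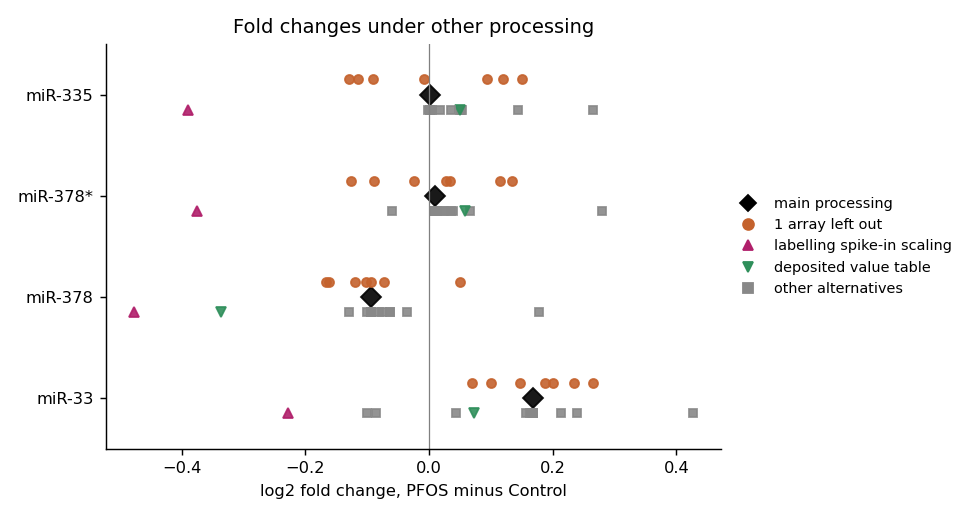
log2 fold change of PFOS minus control for miR-33, miR-378, miR-378* and miR-335 under the main processing (diamonds), with 1 array left out (circles), under labelling spike-in scaling, in the deposited value table and under the other alternatives; cyclic loess with equal weights is left out of the plot. Values lie on both sides of 0 for every arm, and spike-in scaling gives the lowest value of each.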

How the data were processed

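The deposited spot intensity values come from Feature Extraction 10.7.3.1, per the file headers; the processed signal used here is background-subtracted and spatially detrended. The authors' deposited table holds log2 values normalized by cyclic lowess, per the labels; column by column it followed the unsubtracted median pixel signal (Pearson r across 677 miRNAs of 0.9987 to 0.9999), was not centred (column medians 5.48 to 5.51), and has lowess settings not given in the sources used here. The flags used (other values) are 0 or 1 per spot, per the file headers.

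Spots flagged as outliers were left out, spots of a probe averaged, and probes of a miRNA summed. Each array was divided by its 75th percentile over miRNAs detected on all arrays and brought to a common level. A floor was set at the 1st percentile of detected signals (12.1), log2 was taken, and cyclic loess (span 0.7, 3 iterations) was weighted to those miRNAs. Probe values are scaled only. Tested were miRNAs detected on all 3 control or at least 3 PFOS arrays, by limma 3.58.1 (lmFit, eBayes) in R 4.3.3 with Benjamini-Hochberg adjustment over all 175. Plots used matplotlib 3.10.9. The fit was tested on simulated data.

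Groups came from the source names; replicate numbers only name arrays. The number of arrays limits precision. The members and lists were chosen with earlier results of these data known. Named were all member arms, list miRNAs at an unadjusted p under 0.05 with miR-122, and for each tested arm the 3 miRNAs of highest Pearson r. Alternatives changed normalization, background, signal, summary, floor, filter, moderation and slide row, and left out each array. Naming miR-99a, miR-3557 and the GC content of some miRNAs was chosen after values were seen.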

Additional observations from a re-analysis of the deposited data

Results flagged for a closer look

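Of 17 measures screened on the 4 PFOS arrays (the tested arms, their detected probes, the arm ratio and 5 array measures), 1 had an array standing apart. Chance alone marks about 1 group in 20. The labelling spike-in signal of PFOS replicate 3 was 4452, against 2751 to 2959 on the other PFOS arrays and 1460 to 1503 on the control arrays. That array also had the 1 detection of miR-185, and the part of its brightness in that detection was not tested.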

How the results depend on the processing

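The count of miRNAs past the threshold, 0 in the main processing, became 3 (3 higher, 0 lower) with the 75th percentile taken over all miRNAs, 22 (6 and 16) under normexp, 20 (5 and 15) with the median pixel signal, 9 (0 and 9) in the authors' deposited table, 1 (0 and 1) with no detection filter, 4 (3 and 1) with slide row as a block and 34 at an unadjusted p under 0.05; it was 0 to 0 with 1 array left out. The signs of the members turned as follows, and the cause was not tested. Every range with 1 array left out is of the main processing. For miR-33 the log2 fold change was -0.23 under spike-in scaling, -0.10 under normexp and -0.085 with the median pixel signal (0.070 to 0.26 with 1 array left out). For miR-378 it was 0.18 with the 75th percentile taken over all miRNAs (-0.17 to 0.050 with 1 array left out). For miR-378* it was -0.041 under cyclic loess with equal weights, -0.37 under spike-in scaling and -0.059 with slide row as a block (-0.13 to 0.13 with 1 array left out). For miR-335 it was -0.38, -0.39 and -0.0020 in these 3 (-0.13 to 0.15 with 1 array left out). The miR-378 to miR-378* difference passed in the authors' deposited table alone among the alternatives run, at -0.40. With 1 array left out of the main values, the difference ran from -0.20 to -0.030. The number of arm pairs passing in the authors' deposited table was not counted. The median of the lipid list, 0.0016, was 0.25 with the 75th percentile taken over all miRNAs, 0.37 under equal weights, -0.41 under spike-in scaling and -0.10 in the authors' deposited table (-0.061 to 0.020 with 1 array left out). Cyclic loess with equal weights was unstable, with miR-378 at 44.0 to 31629 across control arrays. No paired analysis was possible because replicate numbers only name the arrays. Arms near background (miR-185, miR-33*, miR-185*) have no measurable difference.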
